A study of Mus musculus with 4 samples.

Results

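Genes that drive DNA replication and mitosis were followed in spleens of mice lacking Nrf2, the transcription factor that induces detoxification and antioxidant genes, and in spleens of wild-type littermates. The set held 40 genes, 19 of DNA replication and 21 of mitosis, and its members were every non-control probe set whose platform annotation gave only 1 of these symbols. It covered 37 genes through 50 probe sets (23 of replication and 27 of mitosis), out of 8251 genes with a symbol on the array. Ccnb1 and Bub1b were matched to no probe set, and the probe sets assigned to Tyms were shared with a pseudogene and were left out. A probe set was tested where its mean log2 intensity over the 4 arrays lay above the 40th percentile, which kept 39 probe sets of 34 genes, 15 of replication and 19 of mitosis. Mcm6, Dut and Ccne2 were too dim to test.

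Total RNA came from whole spleens of female nrf2 -/- mice (2 arrays) and female nrf2 +/+ mice (2 arrays), all 5 months old, an age the labels place before severe autoimmune disease. Both genotypes were bred from heterozygotes, themselves the offspring of C57B6/129SVJ knockout and C57B6/SJL wild-type mice, so the strain background was mixed. Whether each array carried RNA of a single mouse or of a pool is not in the labels, so a p-value here speaks for the spread among these 4 arrays only, part of which may be technical. Their number limits the precision. Because whole tissue was measured, fewer dividing cells and less of a transcript per dividing cell cannot be told apart.

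Cells copy their DNA once per division. The Mcm2-7 helicase is loaded at origins with the help of Cdc6, is activated with Cdc45, and is followed by polymerases held on DNA by the Pcna clamp, while ribonucleotide reductase (Rrm1, Rrm2) supplies deoxynucleotides. Cdk1 with cyclins A and B then starts mitosis, the Aurora and Polo kinases build the spindle, and the anaphase-promoting complex with Cdc20 and Ube2c ends it. In adult mice the spleen holds dividing red cell precursors as well as dividing lymphocytes and plasmablasts.

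Replication and mitotic genes are known to carry different promoter elements, E2F sites in many replication genes and a CHR element with CCAAT boxes in many mitotic genes. RefSeq promoter windows of 300 bases on GRCm38.p6, from 250 bases before the annotated start, were found for 34 of the 40 genes. The windows of Mcm4, Ccne2, Ccna2, Aurkb, Kif20a and Stmn1 were not used here. Searched on both strands, an E2F match (TTTCCCGC or TTTGGCGC) lay in the windows of 5 of 17 replication genes (29.4%) and 0 of 17 mitotic genes, against 1.8% of the 27025 genes with a window. A CHR match (TTTGAA) lay in 3 replication genes (17.6%) and 12 mitotic genes (70.6%), against 20.2% of all genes. A CCAAT match lay in 9 replication genes (52.9%) and 14 mitotic genes (82.4%), against 41.1% of all genes. CHR and CCAAT matches stood together in 12 mitotic genes (70.6%) and 2 replication genes (11.8%), against 8.97% of all genes. Matches overlapped in 2 member windows, a pair of CCAAT matches in Ube2c and a CHR with a CCAAT match in Cdca8. A match is a description of the sequence and not a binding site. The 4 windows below are shown because they contrast the promoters of 2 helicase genes with those of the mitotic kinase and its cyclin, with every match in capitals. Mcm3 lies on the minus strand at chr1:20820263-20820562, Mcm5 on the plus strand at chr8:75109259-75109558, Cdk1 on the minus strand at chr10:69352863-69353162 and Ccnb2 on the minus strand at chr9:70421505-70421804.
Mcm3: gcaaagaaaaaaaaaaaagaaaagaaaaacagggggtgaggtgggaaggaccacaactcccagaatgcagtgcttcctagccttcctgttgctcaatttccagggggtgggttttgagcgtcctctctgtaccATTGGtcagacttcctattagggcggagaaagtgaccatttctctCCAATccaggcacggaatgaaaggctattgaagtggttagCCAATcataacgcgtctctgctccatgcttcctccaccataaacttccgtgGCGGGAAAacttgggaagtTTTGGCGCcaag
Mcm5: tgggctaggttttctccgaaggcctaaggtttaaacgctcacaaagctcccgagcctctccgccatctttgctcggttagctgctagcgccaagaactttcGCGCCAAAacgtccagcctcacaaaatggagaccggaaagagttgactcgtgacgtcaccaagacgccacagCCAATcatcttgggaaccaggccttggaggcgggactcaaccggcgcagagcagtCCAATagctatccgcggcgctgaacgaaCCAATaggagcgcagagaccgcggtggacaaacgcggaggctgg
Cdk1: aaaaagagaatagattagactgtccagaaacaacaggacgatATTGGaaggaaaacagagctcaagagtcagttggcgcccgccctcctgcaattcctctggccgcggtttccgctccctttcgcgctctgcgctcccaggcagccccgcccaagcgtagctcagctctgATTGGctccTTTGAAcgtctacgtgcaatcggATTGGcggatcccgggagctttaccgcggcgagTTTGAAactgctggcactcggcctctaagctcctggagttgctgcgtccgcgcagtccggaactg
Ccnb2: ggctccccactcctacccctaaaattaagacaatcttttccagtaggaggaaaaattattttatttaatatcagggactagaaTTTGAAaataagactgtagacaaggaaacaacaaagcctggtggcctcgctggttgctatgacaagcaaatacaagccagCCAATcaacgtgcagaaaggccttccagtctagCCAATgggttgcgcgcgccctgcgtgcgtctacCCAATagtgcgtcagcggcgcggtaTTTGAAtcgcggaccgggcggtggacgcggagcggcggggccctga
The Mcm3 window holds 2 E2F and 3 CCAAT matches and the Mcm5 window 1 E2F and 3 CCAAT matches, with no CHR match in either. The Cdk1 and Ccnb2 windows each hold 2 CHR and 3 CCAAT matches and no E2F match. Other members depart from this contrast, with no CHR match in Ccnb1, and a CHR match but no E2F match in Mcm2.

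The arrays had 2% trimmed mean intensities between 2501.5 and 2502.0, so the values were used as deposited. Wild-type replicate 1 stood apart, with Pearson's r over tested probe sets of 0.849 to 0.851 against the other arrays, which correlated with each other at 0.938 to 0.947. Its 3' to 5' signal ratio for the Gapdh control, a sign of RNA and labelling quality, was 88.3, against 25.5 and 34.8 in the knockout arrays and 8.07 in wild-type replicate 2. The same ratio for the actin control did not single out that array, at 19.3 and 16.1 in the knockout arrays, against 14.4 and 8.86 in wild-type replicates 1 and 2. Nfe2l2, the targeted gene, had intensities of 202 and 178.6 in the knockouts, against 3537 and 6321 in the wild types. The spleen label was met by lymphocyte markers, with 9 of 10 listed B cell genes, among them Cd79a and Ms4a1, and 9 of 10 listed T cell genes, among them Cd3e and Cd4, bright enough to test. Markers of exocrine pancreas, a tissue that lies against the spleen, were also read, with a summed intensity over 8 tested genes of 9921 and 11041 in the knockouts, against 82613 and 21977 in the wild types. Wild-type replicate 1 was the highest array for 7 of these 8, and their part in the results on cell division genes was not tested.

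The 2 knockout arrays differed from each other across the cell division genes. Knockout replicate 1 was the lower of the pair in each of the 34 tested genes, a direction seen in 49.8% of all 5705 tested genes, and in all 39 tested probe sets. By median the level in replicate 2 was 1.93 times that in replicate 1 for replication genes and 1.92 times for mitotic genes, while the median difference over all tested genes was 0.0016 on the log2 scale. The gap reached at least 2-fold in 15 of the 34 genes (44.1%), 7 of replication and 8 of mitosis, against 4.36% of all tested genes. A gap of that size in the other direction was seen in 0 of the 34, against 2.51%. With 1 array on each side this comparison has no replicate check and carries no test. Between the wild-type arrays, 26 of the 34 genes were lower in replicate 1 than in replicate 2, against 51.9% of all tested genes, and 7 were lower by at least 2-fold, against 18.8%. None of the 34 was at least 2-fold higher in wild-type replicate 1, against 9.48%. Knockout replicate 2 was the highest of the 4 arrays for 26 genes, 10 of replication and 16 of mitosis, against 23.0% of all tested genes. For 17 genes, 10 of replication and 7 of mitosis, knockout replicate 1 lay below both wild-type arrays and knockout replicate 2 above both, an order found in 5.75% of all tested genes.

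**Figure D1:**
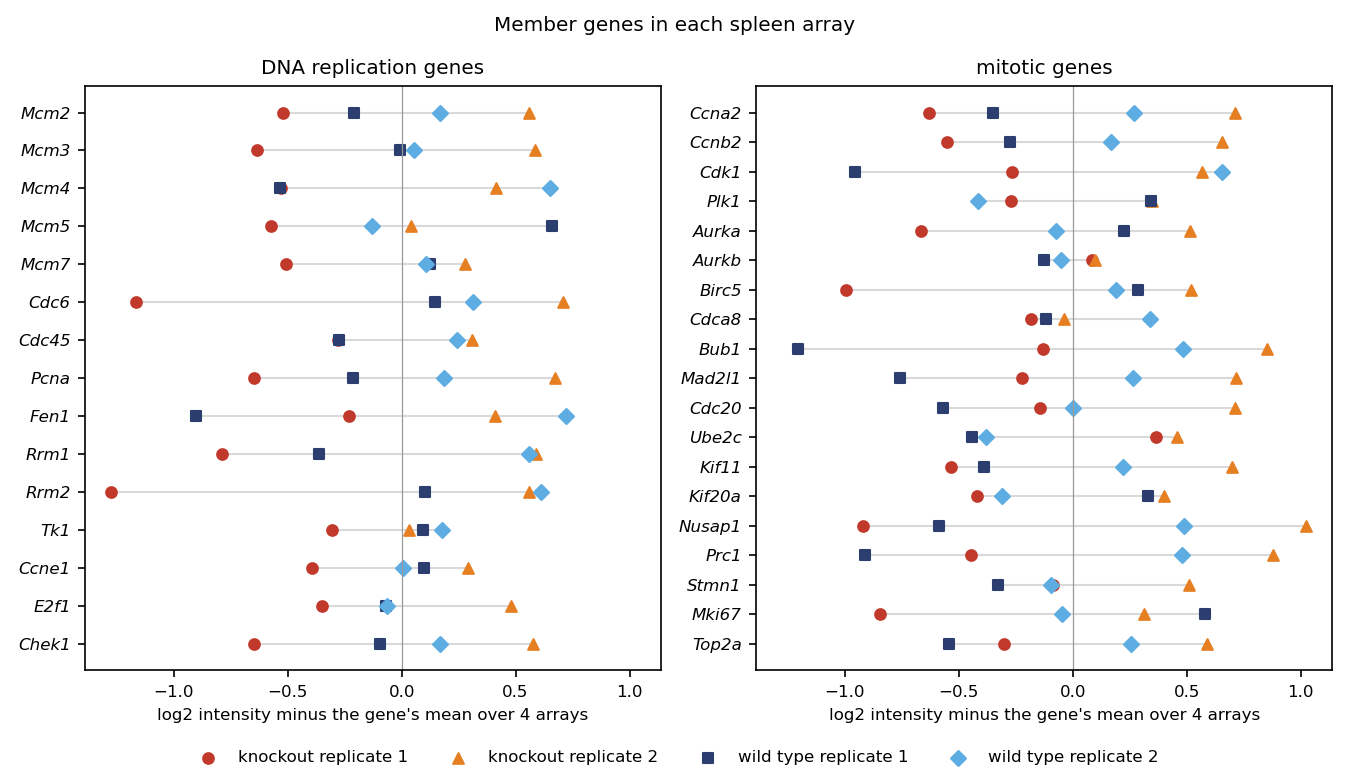
Each row is a tested gene (brightest tested probe set), with the log2 intensity of each of the 4 arrays minus the gene's mean on the horizontal axis; red circles and orange triangles are knockout replicates 1 and 2, dark squares and light diamonds wild-type replicates 1 and 2. Knockout replicate 1 lies left of knockout replicate 2 in all 34 rows, and the wild-type arrays mostly lie between them in the replication panel.

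Among helicase and origin genes the same order recurred. Mcm2 read 2349 and 4961 in knockout replicates 1 and 2, and 2913 and 3778 in wild-type replicates 1 and 2. Mcm3, on its brighter probe set, read 7348 and 17094 on the knockout arrays, against 11362 and 11845 on the wild-type arrays. Mcm7 read 5416 and 9348 in the knockouts, against 8406 and 8293 in the wild types. In these 3 subunits of the replicative helicase both wild-type arrays lay between the knockout arrays, so the genotypes overlapped. Mcm5 read 15599 and 23826 on the knockout arrays, against 36631 and 21195 on the wild-type arrays, and was highest in wild-type replicate 1. Mcm4 read 1462 and 2815 in knockout RNA, against 1457 and 3321 in wild-type RNA, so that both replicates 1 were low and both replicates 2 high. Mcm6 read 32.1 and 121.1 in Nrf2-deficient spleens, against 112.7 and 83.5 in the wild-type spleens, below the floor of 185 on every array, and no fold is given. Cdc6, which loads the helicase, read 1858 and 6794 on the knockout arrays, against 4603 and 5165 on the wild-type arrays. Its gap between the knockout arrays, 3.66-fold, was the widest of the tested replication genes. Cdc45, a part of the active helicase, read 1597 and 2401 in the knockouts, against 1601 and 2290 in the wild types, with the replicates 1 again level with each other. Over the 7 tested origin and helicase genes, 6 had their lowest value in knockout replicate 1, against 18.9% of all tested genes.

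The clamp and the nucleotide enzymes followed. Pcna read 15128 and 37788 on the knockout arrays, against 20422 and 26891 on the wild-type arrays, a 2.50-fold gap between the knockout arrays. Rrm1, the large ribonucleotide reductase subunit, read 3299 and 8579 in knockout RNA, against 4433 and 8397 in wild-type RNA. Rrm2, the small subunit made mainly in S phase, read 648.7 and 2311 in Nrf2-deficient spleens, against 1683 and 2397 in the wild-type spleens. Pcna had the knockout arrays at both extremes, while for Rrm1 and Rrm2 knockout replicate 1 was lowest and knockout replicate 2 and wild-type replicate 2 were nearly level. Fen1, the nuclease that trims Okazaki fragments, read 2435 and 3803 on the knockout arrays, against 1531 and 4721 on the wild-type arrays, and here wild-type replicate 1 was the low array. Tk1, thymidine kinase, read 3348 and 4234 in the knockouts, against 4422 and 4682 in the wild types. It was the only 1 of the 15 tested replication genes (6.67%) whose groups did not overlap, lower in knockout, against 12.2% of all tested genes. Another Tk1 probe set, too dim to test, read 312.9 and 849.6 on the knockout arrays, against 152.1 and 598.5 on the wild-type arrays. On that probe set the groups overlapped. Among genes of S phase entry and its checkpoint, Ccne1 (cyclin E1), E2f1 and Chek1 were each lowest in knockout replicate 1 and highest in knockout replicate 2, with gaps of 1.61-fold, 1.78-fold and 2.33-fold. A second E2f1 probe set, too dim to test, read 83.8 and 497.3 on the knockout arrays, against 500 and 416.9 on the wild-type arrays.

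In the mitotic group the median knockout gap was as wide, and wild-type replicate 1 was the lowest array for 9 of the 19 genes (47.4%), near the 40.8% of all tested genes. Ccna2, cyclin A2, read 3762 and 9555 on the knockout arrays, against 4566 and 7026 on the wild-type arrays, and Ccnb2, cyclin B2, read 8577 and 19819 in knockout RNA, against 10402 and 14142 in wild-type RNA. Cdk1, their kinase partner, read 4184 and 7454 in Nrf2-deficient spleens, against 2594 and 7906 in the wild-type spleens. For both cyclins knockout replicate 1 was lowest and knockout replicate 2 highest, whereas Cdk1 was lowest in wild-type replicate 1 and nearly level in both replicates 2. Mki67, which coats mitotic chromosomes and is the usual marker of dividing cells, read 15862 and 35483 on the knockout arrays, against 42621 and 27661 on the wild-type arrays. Top2a, the topoisomerase that untangles sister chromosomes, read 5106 and 9475 in the knockouts, against 4326 and 7519 in the wild types. These 2 markers of division therefore disagreed about wild-type replicate 1, which was the highest array for Mki67 and the lowest for Top2a. Wild-type replicate 1 was highest for 2 of the 34 genes, Mcm5 and Mki67, against 36.4% of all tested genes.

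The checkpoint and anaphase genes had their lowest value in wild-type replicate 1 in all 4 tested cases, against 40.8% of all tested genes, and the part of its Gapdh ratio in these values was not tested. Bub1, a spindle checkpoint kinase, read 1171 and 2315 on the knockout arrays, against 554.9 and 1789 on the wild-type arrays. Mad2l1, the checkpoint protein that holds Cdc20 inactive, read 4816 and 9233 in knockout RNA, against 3326 and 6740 in wild-type RNA. Cdc20, the activator of the anaphase-promoting complex, read 3217 and 5810 in Nrf2-deficient spleens, against 2393 and 3549 in the wild-type spleens. On the tested probe sets of these 3 genes each wild-type array lay below the higher knockout array, but wild-type replicate 2 was above knockout replicate 1. Ube2c, the ubiquitin-conjugating enzyme of that complex, read 1183 and 1259 on the knockout arrays, against 676.1 and 704.2 on the wild-type arrays. Both knockout values were above both wild-type values, and neither genotype's arrays differed from each other by more than 1.06-fold. The name of its probe set carries a suffix given to designs outside the usual selection rules.

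Among the spindle and chromosome passenger genes the size of the knockout gap varied most. Nusap1, a microtubule-binding protein of the spindle, read 2562 and 9847 on the knockout arrays, against 3223 and 6790 on the wild-type arrays, and its gap of 3.84-fold on this brighter probe set was the widest among the 34 tested genes. Its dimmer tested probe set read 530.8 and 747.6 in the knockouts, against 602.7 and 605.3 in the wild types, a gap of only 1.41-fold. The names of both Nusap1 probe sets carry suffixes given to designs outside the usual selection rules. Birc5 (survivin) read 2842 and 8097 in the knockouts, against 6904 and 6453 in the wild types, and Aurka (Aurora A) read 1407 and 3188 in knockout RNA, against 2604 and 2122 in wild-type RNA. Aurkb (Aurora B), the kinase of the complex to which Birc5 belongs, read 2048 and 2062 in Nrf2-deficient spleens, against 1767 and 1859 in the wild-type spleens, and its small gap between the knockout arrays changed direction under each of 3 other scalings, quantile, median-centred and loess. Cdca8 (borealin), of the same complex, read 2256 and 2492 in the knockouts, against 2364 and 3245 in the wild types. The passenger complex genes thus differed in their gap, with Birc5 differing 2.85-fold between the knockout arrays and its partner Aurkb 1.01-fold. The motor gene Kif11 and the spindle midzone gene Prc1 differed by 2.35-fold and 2.51-fold between the knockout arrays, and the midzone motor gene Kif20a by 1.77-fold. Stmn1, which destabilises microtubules, read 17758 and 26848 on the knockout arrays, against 15020 and 17615 on the wild-type arrays, so the genotypes did not overlap but knockout replicate 1 and wild-type replicate 2 nearly met. Ube2c, Aurkb and Stmn1 were the 3 tested members whose groups did not overlap with knockout higher, 8.82% of the 34 against 14.3% of all tested genes.

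Set against this spread, no member passed the test between knockout and wild type. The fit with limma tested 7453 probe sets, and 0.0537% of them had an adjusted p under 0.05. Of the 39 member probe sets 0 passed, and 0 had an unadjusted p under 0.05, against 1.74% of all tested probe sets. Adjusted p ranged from 0.992 to 0.998, and the standard errors from 0.38 to 0.68 on the log2 scale. The lowest unadjusted p among members, 0.0823, belonged to a probe set of Plk1. Ube2c had the largest difference toward knockout among tested genes on their brightest probe set, 0.82 (SE 0.42, 95% confidence interval -0.15 to 1.80, limma adjusted p = 0.992). Rrm2 had the largest in the other direction, -0.71 (SE 0.62, interval -2.14 to 0.71, limma adjusted p = 0.992). For Pcna the difference was 0.03 (SE 0.53, interval -1.21 to 1.26), and -0.03 with arrays centred on their medians, and for Mki67 -0.53 (SE 0.53, interval -1.75 to 0.68). The interval reached past 2-fold in both directions for 16 of the 39 probe sets and in at least 1 direction for all 39, so a missed threshold does not show equal levels. At the median standard error over all tested probe sets, 0.46, a difference of 1.06 would have reached an unadjusted limma p of 0.05. Members with larger standard errors needed more, as the Plk1 probe set at -1.16 (SE 0.58) had an unadjusted limma p of 0.0823.

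**Figure D2:**
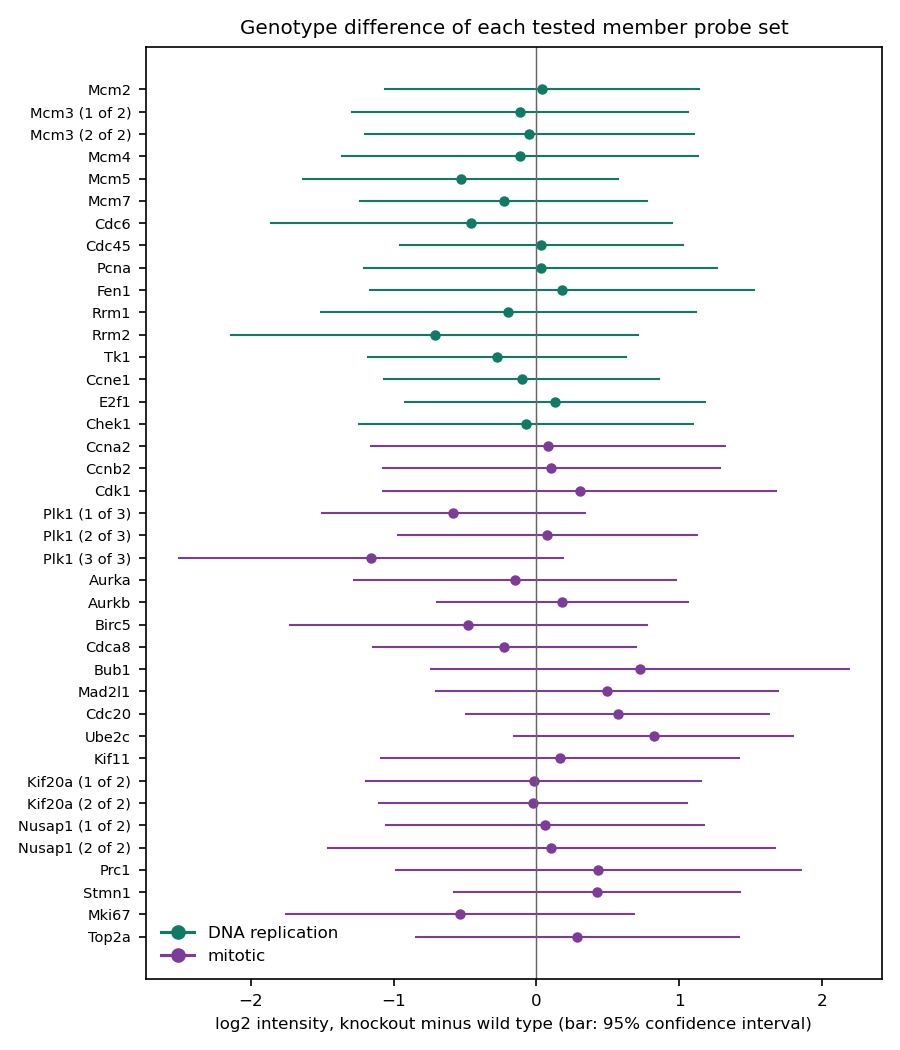
Each row is 1 of the 39 tested member probe sets; the point is the log2 difference, knockout minus wild type, and the bar its 95% confidence interval from limma (n = 2 arrays per genotype), green for DNA replication and purple for mitotic genes. Every bar crosses 0, and the lowest point is a Plk1 probe set at -1.16.

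As groups, replication genes had a median difference of -0.10 with 5 of 15 higher in knockout (2 or 3 under the other scalings), and mitotic genes a median of 0.17 with 14 of 19 higher, beside 0.05 and 54.4% over all tested genes. The array medians, each gene taken relative to its own mean, give the same groups array by array. For replication genes they were -0.53 and 0.48 in knockout replicates 1 and 2, and -0.07 and 0.18 in wild-type replicates 1 and 2. For mitotic genes they were -0.30 and 0.57 in knockout, and -0.35 and 0.19 in wild type. The genotype means of these array medians were -0.03 ± 0.72 in knockouts and 0.05 ± 0.18 in wild type for replication (SD, n = 2 each), and 0.13 ± 0.62 in knockout and -0.08 ± 0.38 in wild type for mitosis (SD, n = 2 each). Both genotype differences were smaller than the spread between arrays of a genotype.

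The sign of the group medians depended on single arrays. Without knockout replicate 1 the median was 0.48 for replication and 0.72 for mitotic genes, with 13 of 15 and 18 of 19 higher in knockout. Without knockout replicate 2 it was -0.62 and -0.23, with 0 of 15 and 6 of 19 higher. Without wild-type replicate 1, the array that stood apart, both medians were negative, at -0.22 and -0.12, and 1 of 15 and 6 of 19 were higher. Without wild-type replicate 2 they were 0.06 and 0.47, with 8 of 15 and 14 of 19 higher. The median over all tested genes stayed between -0.0024 and 0.08 in these fits.

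**Figure D3:**
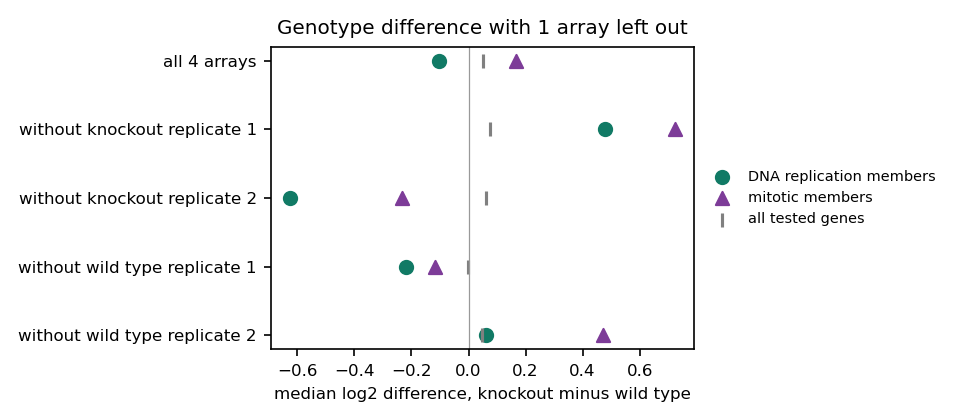
The horizontal axis is the median log2 difference, knockout minus wild type, over the 15 replication genes (green circles), the 19 mitotic genes (purple triangles) and all 5705 tested genes (grey bars), with all 4 arrays and with each array left out in turn. Both groups lie right of 0 without knockout replicate 1 and left of 0 without knockout replicate 2.

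In the 4 genes with several tested probe sets each of them was lower in knockout replicate 1, but the size of the gap differed, most of all for Nusap1. The dimmer Mcm3 probe set read 4702 and 11288 on the knockout arrays, against 8918 and 6968 on the wild-type arrays, a 2.40-fold gap between the knockout arrays beside 2.33-fold on the brighter. Plk1, the Polo kinase of mitotic entry, was the 1 gene whose tested probe sets took opposite signs. They gave genotype differences of 0.07, -0.58 and -1.16 (SE 0.45, 0.40 and 0.58, limma adjusted p of 0.997, 0.992 and 0.992). The last of these read 267.5 and 713.8 on the knockout arrays, against 964.9 and 984.1 on the wild-type arrays, and the groups did not overlap. The probe set at -0.58 read 1560 and 1878 on the knockout arrays, against 2944 and 2231 on the wild-type arrays. Its groups did not overlap either, with knockout lower. The brightest read 2839 and 4360 in knockout RNA, against 4348 and 2567 in wild-type RNA, and overlapped. All 3 carry suffixes of probe sets that can also read related transcripts, so the direction of Plk1 is uncertain. The brightest probe sets of Mcm3, Kif20a and E2f1 carry such suffixes too. A dim Mcm5 probe set read 245.4 and 786.9 on the knockout arrays, against 160.7 and 142.9 on the wild-type arrays, with groups apart in the direction opposite to its bright probe set. The 11 untested probe sets were the only ones of Mcm6, Dut and Ccne2 and further ones of Mcm5, Rrm1, Tk1, E2f1, Bub1, Stmn1 and Mki67. Dut, which removes dUTP, read 142.3 and 405.7 in the knockouts, against 103.3 and 397.6 in the wild types, with both replicates 1 below the floor. Ccne2, cyclin E2, was above the floor in knockout replicate 2 alone, at 208.6.

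Outside genes of the same machinery were counted in 2 further lists. Of 36 tested replication genes outside the set, such as polymerase, clamp loader and origin genes, 21 were higher (58.3%) and 15 lower in knockout, with a median of 0.16. Of 33 mitotic genes 24 were higher (72.7%) and 9 lower, with a median of 0.32. Over all tested genes 54.4% were higher, with a median of 0.05. None passed by limma in either direction, and 0 had an unadjusted p under 0.05. The 3 lowest p in the replication list belonged to Rnaseh2a, a ribonuclease H2 subunit, with a difference of -1.07, Chaf1b, a chromatin assembly subunit, with -0.86, and Brca1, a repair gene, with 0.96. In the mitotic list they belonged to the transcription factor gene Mybl2 with -1.12, the lamin gene Lmnb1 with 0.97 and the checkpoint kinase gene Ttk with 0.79, and the limma adjusted p was 0.992 for all 6. Rnaseh2a had intensities of 1117 and 1531 in the knockouts, against 4053 and 1851 in the wild types, and Mybl2 of 749.3 and 1605 in the knockouts, against 3840 and 1470 in the wild types. In both genes wild-type replicate 1 was far above the rest. Knockout replicate 1 lay below knockout replicate 2 in 34 of the 36 and in 31 of the 33, against 49.8% of all tested genes. The median gap was 1.59-fold and 1.71-fold. It reached at least 2-fold in 4 of the 36 replication genes (11.1%) and in 10 of the 33 mitotic genes (30.3%), against 4.36% of all tested genes. Among members the shares were 46.7% for replication and 42.1% for mitosis. The median genotype difference was 0.16 for the outside replication genes and -0.10 for the replication members. Both were smaller than the SD between the knockout array medians, 0.46 and 0.72, and the sign for the members depended on single arrays.

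Red cell precursor genes moved with the cell division genes between the knockout arrays. Of 16 tested erythroid markers 15 had knockout replicate 1 at least 2-fold below knockout replicate 2, with a median gap of 3.26-fold over the list, and Tfrc was the exception. Their summed intensity was 44381 and 186992 in knockout replicates 1 and 2, and 180968 and 143559 in wild-type replicates 1 and 2. Klf1, an erythroid transcription factor gene, read 3284 and 24927 on the knockout arrays, against 21688 and 15486 on the wild-type arrays. No marker of the list with a probe set was below the floor on every array. In all, 249 genes were at least 2-fold lower in knockout replicate 1 than in replicate 2. Cell division genes, members and others together, made up 29 of these (11.6% of the 249 and 28.2% of the 103 tested), and erythroid markers 15 (6.02% of the 249 and 93.8% of the 16 tested). The part of the erythroid genes in the gap of the cell division genes was not tested.

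Markers of B cells, T cells, plasma cells and neutrophils did not share the gap of the knockout arrays. In knockout replicate 1, 3 of 9 B cell, 1 of 9 T cell and 0 of 5 plasma cell markers were lower. Among neutrophil markers 7 of 13 (53.8%) were lower, and among all tested genes 49.8%. The median level in knockout replicate 2 was 0.668 times that in replicate 1 for B cell, 0.775 times for T cell and 0.655 times for plasma cell markers. Summed B cell marker intensity was 193124 and 154647 on the knockout arrays, against 327026 and 177677 on the wild-type arrays, and summed T cell marker intensity 54075 and 44871 in Nrf2-deficient spleens, against 104247 and 57747 in the wild-type spleens. Of the germinal centre markers 4 were tested and 0 of them were lower in knockout replicate 1. Neutrophil markers differed little between the knockout arrays (1.03-fold) and summed to 537878 and 597872 on the knockout arrays, against 719091 and 180784 on the wild-type arrays. S100a8 and S100a9, at 265039 and 177669 in wild-type replicate 1, made up much of its sum. By gene, 12 of the 13 were higher in knockout, against 54.4% of all tested genes. In 8 of them both knockout arrays were above both wild-type arrays, against 14.3%. Wild-type replicate 1 was the highest array for 4 of them, against 36.4%. No list marker of these types with a probe set was below the floor on every array.

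**Figure D4:**
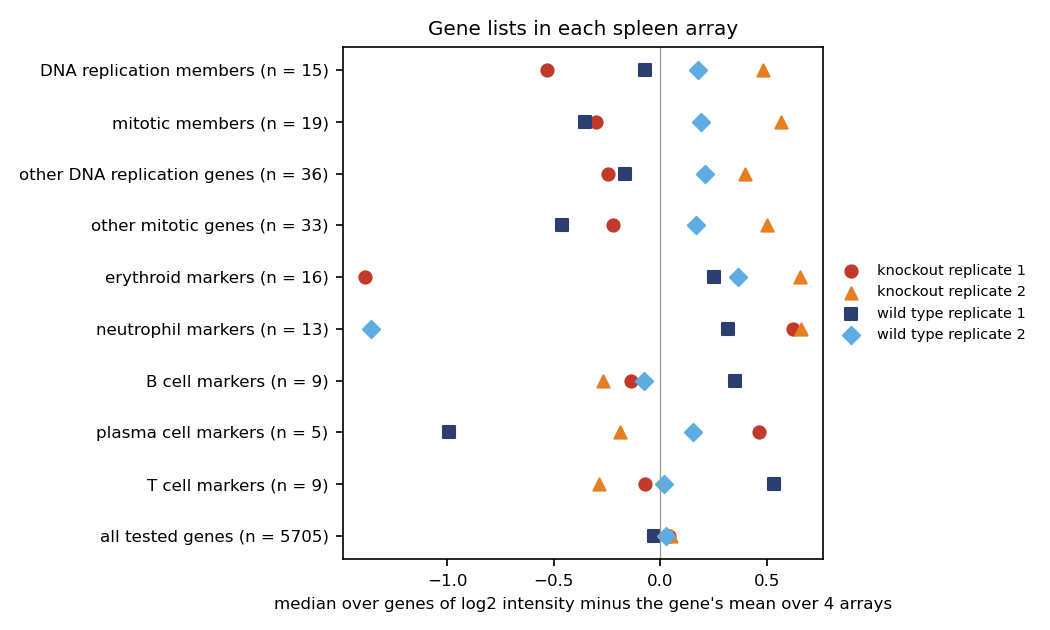
Each row is a gene list with the number of tested genes, and each symbol the median over genes, in 1 array, of log2 intensity minus the gene's mean over the 4 arrays. Knockout replicate 1 is lowest for replication genes (-0.53) and erythroid markers (-1.39), while B cell and T cell markers place knockout replicate 2 lowest.

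Within the wild-type pair the erythroid markers were split. They were lower in wild-type replicate 1 in 6 of 16 genes (37.5%), against 51.9% of all tested genes. At least 2-fold gaps were seen in 3 of the 16 with replicate 1 lower and in 3 with it higher. The median erythroid level in replicate 2 was 0.750 times that in replicate 1, while replication and mitotic members had 1.20 and 1.37 times. Wild-type replicate 1 was the array that stood apart, and its part in these values was not tested.

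**Figure D5:**
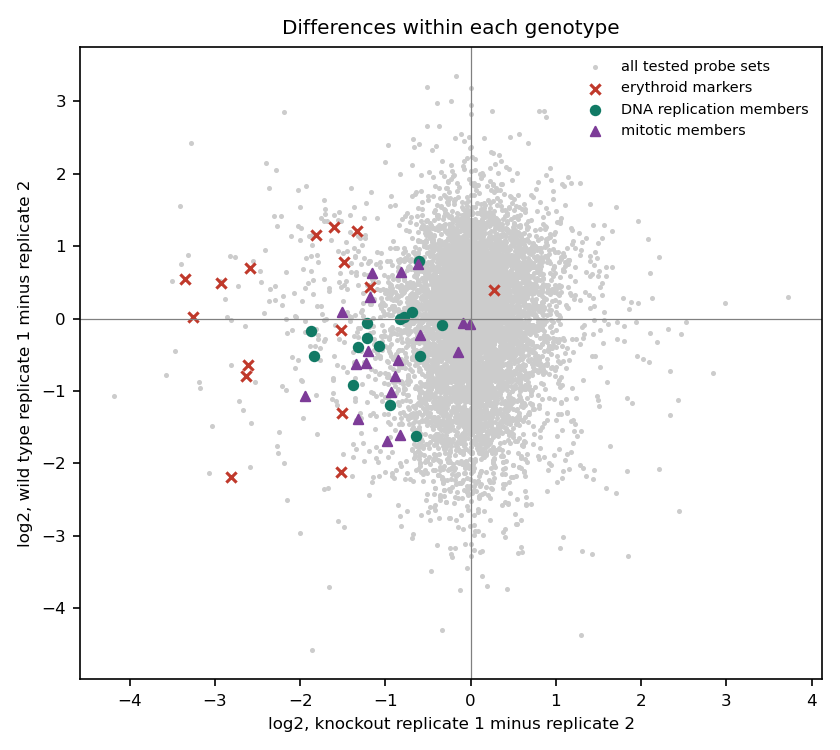
Each point is a tested probe set, with its log2 difference between knockout replicates 1 and 2 on the horizontal axis and between wild-type replicates 1 and 2 on the vertical axis; grey points are all tested probe sets, green circles replication members, purple triangles mitotic members and red crosses erythroid markers. All 34 member genes, each by its brightest probe set, lie left of 0, around a median of -0.94, and the erythroid markers around -1.71, with Tfrc alone right of 0.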

How the data were processed

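Each of the 4 arrays was deposited as linear 1-colour intensities for 12488 probe sets; scanner software and scaling are not given here. Near-equal trimmed means let the authors' values stand without rescaling. After removal of 66 control probe sets, values below the pooled 25th percentile of intensity (185) were raised to it and log2 was taken, which understates differences of dim genes. The 7453 probe sets whose mean log2 intensity exceeded the 40th percentile were tested with limma 3.58.1 in R 4.3.3 (lmFit, then eBayes with trend, prior degrees of freedom 5.88), two-sided, with Benjamini-Hochberg adjustment over all of them at 0.05. Gene symbols came from the platform annotation updated through gene identifiers, and 10817 of 10833 probe sets with 1 symbol matched. Where a gene had several tested probe sets, gene counts used the brightest, and list medians carry no test.

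The members and lists were chosen with earlier results of these data known. Values per array were set by rule for the Mcm, Pcna and Rrm genes, Mki67, Top2a, the mitotic cyclins, Cdk1, members with an unadjusted p under 0.05 or separated groups over 1 on the log2 scale, and members whose probe sets differ in sign. Values of other members were chosen after they were seen. The procedure was also run on simulated data with independent values and a common SD for all probe sets and arrays. That setting holds neither an array that stands apart nor a shift shared by many genes, as seen here. The replicate numbers are shared between genotypes, but the differences within the genotypes correlated at only 0.04 over tested probe sets, and the labels do not pair the arrays. The settings varied were scaling, floor, filter, variance model, single arrays, the block on replicate number and cross-hybridising probe sets; those of the gap between the knockout arrays and of the outside genes were added after seeing the data. Figures used matplotlib 3.10.9 in Python 3.11.15.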

Additional observations from a re-analysis of the deposited data

How the results depend on the processing

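No member passed under any alternative, and the outside replication and mitotic genes also gave 0. The count of tested probe sets that passed, 4 with all arrays, ranged from 3 to 13 with an array left out, and was 0 with no filter, 2 without cross-hybridising probe sets and 36 with the replicate block, which gave members 0. At an unadjusted p under 0.05 limma gave 2 member probe sets without knockout replicate 2, 2 without wild-type replicate 2, 1 with the block and 0 otherwise. With arrays left out in turn, the median difference ranged from -0.62 to 0.48 for replication and from -0.23 to 0.72 for mitotic genes, and the counts higher in knockout from 0 to 13 and from 6 to 18; the cause was not tested. The replication count of 5 was 3 with quantile normalization, 2 with arrays centred on their medians and 3 with cyclic loess. Scaling also turned Mcm2 to -0.0168, -0.0174 and -0.0455 in that order, Pcna to -0.0297 with median centring and the brightest Plk1 probe set to -0.0119 with loess. The gap between the knockout arrays held in 33 of 34 genes under each of these scalings, with Aurkb the exception, and in 36 of 37 with no filter.

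Over the 4 fits without 1 array, differences lay in a range of -0.50 to 0.58 for Mcm2, -0.75 to 0.52 and -0.66 to 0.56 for the dimmer and brighter Mcm3 probe sets, -0.71 to 0.48 for Mcm4, -0.93 to -0.14 for Mcm5, -0.62 to 0.16 for Mcm7, -0.63 to 0.69 for Pcna, -0.89 to 0.49 for Rrm1, -1.63 to 0.20 for Rrm2, -0.59 to 0.75 for Ccna2, -0.50 to 0.71 for Ccnb2, -0.50 to 1.11 for Cdk1, -1.11 to 0.0474 for Mki67, -0.16 to 0.73 for Top2a and -0.31 to 0.45 for the brightest Plk1 probe set. For the Plk1 probe sets with differences of -0.58 and -1.16 over all arrays the ranges were -0.78 to -0.38 and -1.87 to -0.45. With 3 arrays the lone array of a genotype is assumed to vary like the other genotype. Of 237 values of 17 probe sets under alternatives, 29 took the opposite sign. Of these, 24 came from the fits without 1 array and fell in 14 of the 17 probe sets, and 5 came from other settings. The filter settings, the fit with no intensity trend, array weights and the replicate block left each difference unchanged. Their values could therefore not change sign, and the pooled share does not measure how stable the signs were. Dim members such as Mcm6 are limited by signal over background.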
